A study of Mus musculus with 16 samples.

Results

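The factors described here are 9 transcription factors that build or maintain the microglia and macrophage lineage, namely Spi1, Irf8, Runx1, Cebpa, Cebpb, Maf, Mef2c, Sall1 and Ikzf1. They were chosen by name, and all 9 were found among the 21878 mRNAs of the series and had enough counts to be tested. According to the paper, RNA-seq was performed on cells sorted from mouse brain as CD11b+/CD45int microglia. There was 1 library for each of 8 mice with experimental autoimmune encephalomyelitis (EAE) and 8 PBS-treated mice. EAE is an immune attack on myelin that models multiple sclerosis. All mice were female wild-type C57BL/6, 8 weeks old. EAE mice were immunised with a myelin oligodendrocyte glycoprotein peptide (MOG35-55) in complete Freund's adjuvant, received 200 ng of pertussis toxin on days 0, 2 and 7, and were sampled at peak disease, whereas control mice received PBS. The effects of peptide, adjuvant, toxin and disease therefore cannot be told apart. The labels of the EAE samples give a last peptide residue that runs from 55 in EAE 1 to 62 in EAE 8.

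Microglia arise from yolk sac progenitors. Spi1 encodes PU.1, the ETS factor that opens myeloid enhancers, and Irf8 encodes a partner that binds DNA together with PU.1. Runx1 and Ikzf1 act in blood progenitors and remain on in many leukocytes, while Cebpa and Cebpb drive myeloid differentiation and inflammatory gene programmes. Maf, Mef2c and Sall1 belong to the programme of mature tissue macrophages, and Sall1 is the factor most closely tied to the identity of microglia within the brain. Several of these genes are not confined to myeloid cells, since Mef2c is a major factor of cortical neurons and Sall1 is also used by neural progenitors.

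EAE libraries held 24587443–30244215 counts and PBS libraries 26031889–34184576. Markers of neurons, astrocytes and oligodendrocytes were more abundant than those of microglia in all 16 libraries. The paper reports high purity by re-gating after the sort, and the source of this other RNA was not tested. The levels below are therefore those of whole libraries and not of microglia alone. Levels are given as FPKM, a scale that divides read counts by transcript length and library size, so that genes can be compared with each other. The mean FPKM per gene was 14.2–24.1 over 20 microglia markers, 94.8–129 over 12 neuron markers, 146–223 over 8 astrocyte markers and 114–160 over 8 oligodendrocyte markers. The ratio of the neuron mean to the microglia mean was 4.06–7.97. None of the microglia markers was at 0 in every library. In such bulk libraries, fewer cells of a type and less RNA per cell cannot be told apart.

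**Figure D1:**
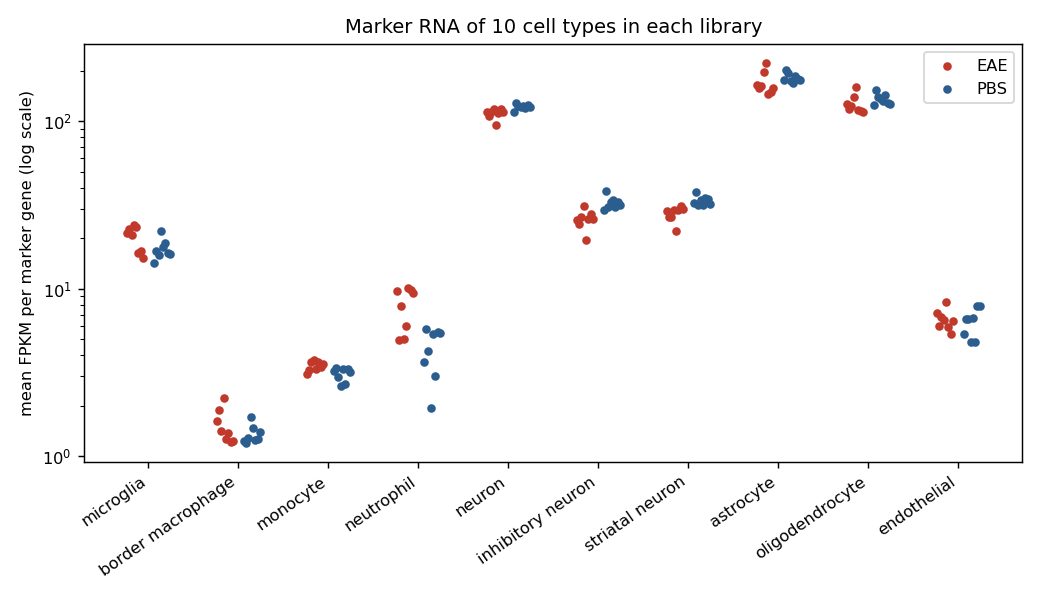
Mean FPKM per marker gene (log axis) for 10 cell types, with 1 point per library in red for EAE and blue for PBS. Microglia markers lie between 14.2 and 24.1 in every library, below the neuron, astrocyte and oligodendrocyte markers.

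Libraries within a group were not equally alike. The median absolute log2 difference between a pair of libraries, over 14759 mRNAs, lay at 0.0826–0.0890 for the 3 pairs made of EAE 6 to EAE 8, against 0.117–0.241 for the 25 remaining EAE pairs. PBS 5, PBS 7 and PBS 8 likewise differed by 0.0750–0.0866, and the 25 remaining PBS pairs by 0.128–0.218. No label names a batch. Only pairs within a group were compared, so joining the EAE and PBS libraries into a shared set is an assumption. These 6 libraries are called the most alike below, which refers to likeness within each group and not between EAE and PBS. They were treated as a set found from the data. Each change was also measured within the set and within the other 5 libraries of each group.

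The promoters of the factors that the results turn on are shown first, as a description of their sequence. RefSeq windows of 250 bases before to 50 bases after a start site (GRCm38.p6) were matched for 7 of the 9 factors, with 14 windows in all. Each was searched on both strands for 6 core motifs, chosen with the results known. These were the PU.1 core GAGGAA (found in 28.3% of all 32851 promoter windows), the RUNX core TGTGGT (16.8%), the MAF core TGCTGA (19.5%), the MEF2 core TATTTTTA (2.72%), the composite ETS-IRF element (2.72%) and the C/EBP palindrome TTGCGCAA (0.183%).

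Runx1 has a distal and a proximal start. The distal window (chr16:92826025-92826324, minus strand, 45.0% GC) held the RUNX core on the opposite strand at 28 and 36 bases after the start, and the proximal window (chr16:92697280-92697579, minus strand, 69.0% GC) held the PU.1 core on the opposite strand 46 bases before it. The first Mef2c window (chr13:83503784-83504083, plus strand, 35.7% GC) held the PU.1 core 122 bases before the start. The first Sall1 window (chr8:89044113-89044412, minus strand, 57.3% GC) held none of the 6 motifs. Capitals mark the matches in the sequences, which run 5′ to 3′ along the gene.
Runx1 distal: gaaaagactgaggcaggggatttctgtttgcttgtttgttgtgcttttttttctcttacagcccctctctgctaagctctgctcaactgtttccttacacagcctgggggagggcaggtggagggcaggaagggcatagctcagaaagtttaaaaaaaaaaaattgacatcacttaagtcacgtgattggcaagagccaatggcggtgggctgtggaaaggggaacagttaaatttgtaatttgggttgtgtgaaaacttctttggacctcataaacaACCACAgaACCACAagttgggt
Runx1 proximal: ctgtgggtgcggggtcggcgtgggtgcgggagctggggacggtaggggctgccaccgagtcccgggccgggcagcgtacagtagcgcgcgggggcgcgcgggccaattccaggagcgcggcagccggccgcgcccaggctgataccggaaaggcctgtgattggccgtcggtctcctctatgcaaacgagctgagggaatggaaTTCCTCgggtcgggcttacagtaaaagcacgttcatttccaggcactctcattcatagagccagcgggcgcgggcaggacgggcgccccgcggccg
Mef2c: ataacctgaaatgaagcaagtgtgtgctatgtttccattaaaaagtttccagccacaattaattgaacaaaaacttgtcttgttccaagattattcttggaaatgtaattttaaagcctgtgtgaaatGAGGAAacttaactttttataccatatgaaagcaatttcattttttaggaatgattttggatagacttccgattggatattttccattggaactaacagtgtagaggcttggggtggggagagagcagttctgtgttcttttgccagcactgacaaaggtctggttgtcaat
Sall1: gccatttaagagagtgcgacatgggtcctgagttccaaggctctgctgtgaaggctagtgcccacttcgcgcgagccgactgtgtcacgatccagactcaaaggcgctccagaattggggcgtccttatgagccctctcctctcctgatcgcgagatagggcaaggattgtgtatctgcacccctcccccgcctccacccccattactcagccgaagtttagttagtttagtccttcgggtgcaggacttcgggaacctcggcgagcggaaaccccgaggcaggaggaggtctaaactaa
Among the windows not printed, those of Cebpa, Cebpb and Ikzf1 and the other Sall1 windows held none of these motifs. Irf8 had a window with none and a window with the MAF core. Of the other Mef2c windows, the earlier held the PU.1 core and the later the MAF core. The motif rates were not tested against the background. A match is a description of the letters and not a measured binding site. The counts were made per gene, so the start site in use is not known from them.

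The order of the levels was almost the same in both groups. Mef2c was the most abundant factor, with a mean of 38.3 ± 3.02 FPKM in EAE and 35.8 ± 2.21 FPKM in PBS libraries (SD, n = 8), higher than 93.0% of the tested mRNAs. Cebpb followed at 10.05 ± 1.59 and 9.49 ± 2.46 FPKM. Mef2c was above Cebpb in 8 of 8 libraries of each group, and Cebpb was above the factor next in order in 8 of 8. Cebpa and Sall1 lay close to 5 FPKM and did not separate from each other, as Cebpa was above Sall1 in 5 of 8 EAE libraries and Sall1 above Cebpa in 4 of 8 PBS libraries. Maf, Spi1 and Irf8 came next at 2.20–3.11 FPKM on average. Spi1 and Irf8 could not be ordered, with Spi1 above Irf8 in 4 of 8 EAE libraries and Irf8 above Spi1 in 5 of 8 PBS libraries. Runx1 and Ikzf1 were lowest, and Ikzf1 was above only 27.2% of the tested mRNAs on the mean of 16 libraries. The coefficient of variation between mice was smallest for Mef2c (7.88% in EAE and 6.17% in PBS) and reached 26.9% for Cebpa in EAE and 25.9% for Cebpb in PBS.

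None of the 9 factors differed between EAE and PBS at an adjusted p under 0.05 (edgeR quasi-likelihood test, Benjamini-Hochberg over 17885 mRNAs). None did in DESeq2 either, where 5.52% of the 16259 mRNAs given an adjusted p passed. The background in the edgeR test was 2.42% of all mRNAs, 0.66% higher and 1.76% lower, and 0.117% when a log2 fold change (log2FC) over 1 in size was also required. At an unadjusted p under 0.05, 2 of the 9, Spi1 and Runx1, were higher and 0 were lower, against a background of 7.92% higher and 9.52% lower. The median log2FC was 0.05 over the 9 factors and 0.009 over all tested mRNAs.

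**Figure D2:**
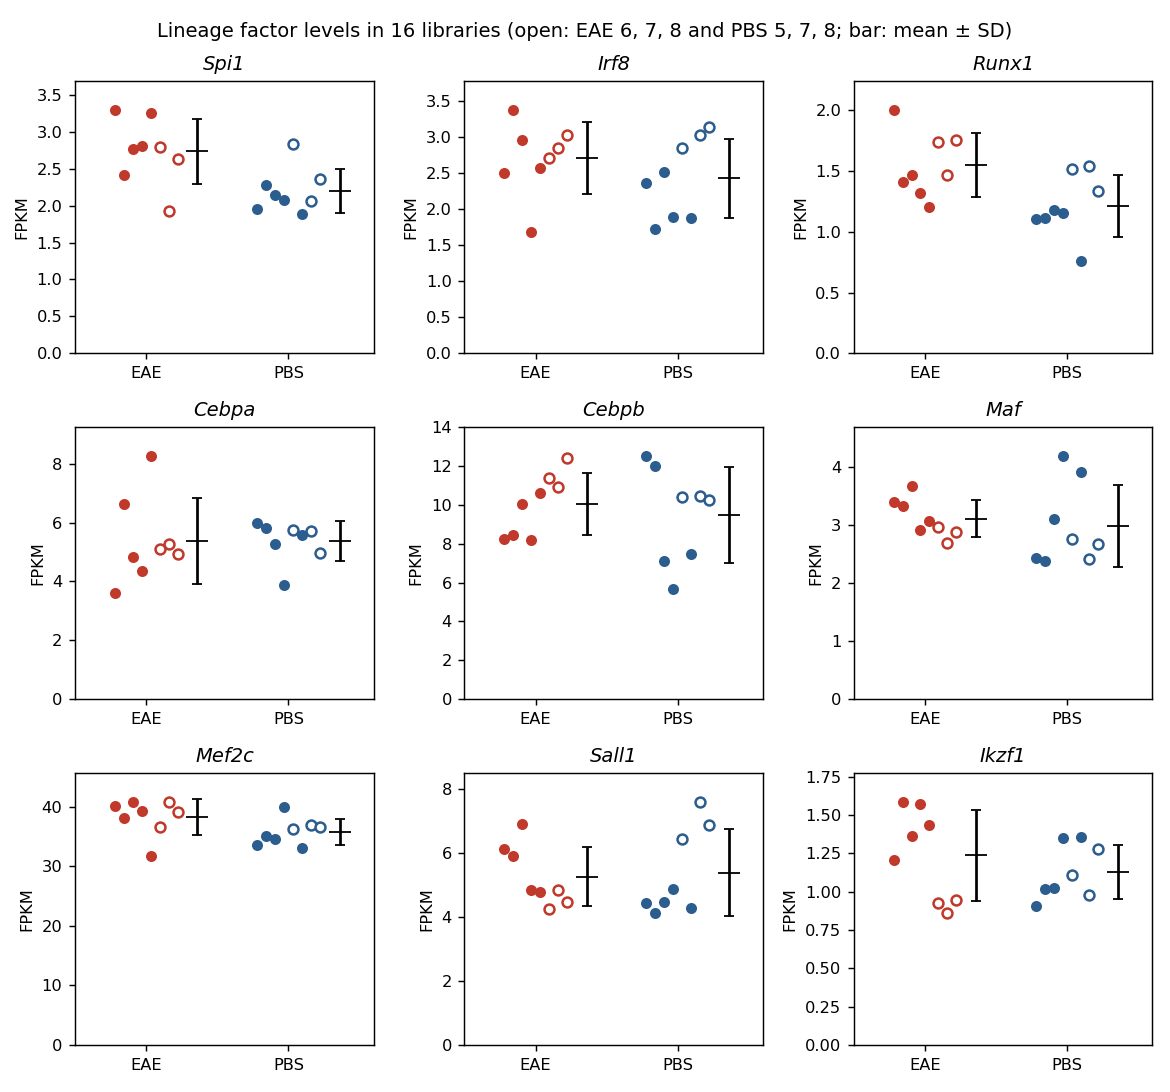
FPKM of the 9 factors in each library, with the mean and SD of each group as a bar and the 6 most alike libraries as open circles. The EAE and PBS groups overlap for every factor, and Ikzf1 splits by library set within the EAE group.

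Spi1 and Irf8, the pioneer factor and its partner, were both low in these libraries. Spi1 (chr2:91082390-91115756, plus strand, GRCm38) was at 3.29, 2.41, 2.77, 2.81, 3.25, 2.80, 1.93 and 2.63 FPKM in EAE 1 to EAE 8. In PBS 1 to PBS 8 it was at 1.96, 2.27, 2.15, 2.07, 2.84, 1.88, 2.06 and 2.35 FPKM. Thus 7 of 8 EAE libraries were above the PBS median, but only EAE 1 and EAE 5 were above every PBS library, and the groups overlapped. The exact permutation test on mean FPKM (two-sided), a scale that differs from the one used in edgeR, gave p = 0.0152. In edgeR the log2FC was 0.26 (SE 0.12, 95% confidence interval 0.013–0.51), with an unadjusted p of 0.0403 and an adjusted p of 0.261. The counts behind these values were 101–195 per library, the fewest of the 9 factors. Within EAE 6 to 8 and PBS 5, 7 and 8 the log2FC was −0.01 (SE 0.17), whereas it was 0.42 (SE 0.15, adjusted p = 0.315 in edgeR) among the other 5 libraries of each group, and these changes were not shown to differ (interaction adjusted p = 0.671 in edgeR).

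Irf8 (chr8:120736358-120756694, plus strand) ranged from 1.68 to 3.37 FPKM in EAE with a median of 2.78, and from 1.72 to 3.13 FPKM in PBS with a median of 2.44. The lowest and the highest EAE libraries, EAE 4 and EAE 2, spanned the whole PBS range. Its log2FC was 0.11 (SE 0.14, 95% confidence interval −0.18 to 0.40, adjusted p = 0.743 in edgeR). The gene model overlaps Gm20388 on the same strand, so its counts are uncertain. Among the 8 other members of the interferon regulatory factor family 0 were called. Irf7 and Irf1, both induced by interferon, had log2FC of 0.51 (SE 0.16, adjusted p = 0.0885 in edgeR) and 0.50 (SE 0.23, adjusted p = 0.250 in edgeR), and Irf3 was the most abundant at 9.08 ± 1.61 FPKM in EAE and 8.66 ± 1.71 FPKM in PBS (SD, n = 8).

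Runx1 (chr16:92601466-92826149, minus strand) had the largest log2FC of the 9 over all libraries. It was at 2.00, 1.41, 1.47, 1.32, 1.21, 1.74, 1.47 and 1.76 FPKM in EAE 1 to EAE 8. The PBS libraries were at 1.104, 1.11, 1.18, 1.16, 1.51, 0.759, 1.54 and 1.34 FPKM. All 8 EAE libraries exceeded the PBS median of 1.17 FPKM and 3 exceeded every PBS library, while PBS 5, PBS 7 and PBS 8 reached into the EAE range. The exact permutation test gave p = 0.0204 (two-sided), and edgeR gave a log2FC of 0.30 (SE 0.13, 95% confidence interval 0.029–0.57, unadjusted p = 0.0312, adjusted p = 0.232). The change was 0.15 (SE 0.11) within the 6 libraries most alike and 0.41 (SE 0.16) among the other 10, with adjusted p of 0.351 and 0.356 in edgeR. Over the 16 edgeR fits that each left out 1 library, the log2FC of Runx1 was 0.22–0.35 and that of Spi1 was 0.22–0.33, with 0 calls. The antisense gene Gm26626 overlaps Runx1. Cbfb, the common partner of RUNX proteins, had a log2FC of 0.04 (SE 0.08).

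Ikzf1 (chr11:11685003-11772926, plus strand), which encodes Ikaros, was at 1.20, 1.59, 1.36, 1.57 and 1.43 FPKM in EAE 1 to EAE 5 and at 0.925, 0.862 and 0.948 FPKM in EAE 6 to EAE 8. The PBS libraries were at 0.904–1.35 FPKM with a median of 1.06. Hence 4 EAE libraries were above all PBS libraries, and EAE 7 was below all of them. The log2FC over 16 libraries was 0.08 (SE 0.14, adjusted p = 0.809 in edgeR). It was −0.32 (SE 0.14, adjusted p = 0.101) within the 6 libraries most alike and 0.27 (SE 0.14, adjusted p = 0.543) in the others. The interaction of condition with library set was −0.61 (SE 0.22, unadjusted p = 0.0112, adjusted p = 0.451 in edgeR) and so was not called. Gm11999 and Gm12000 overlap Ikzf1 on the opposite strand.

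The C/EBP factors showed large spreads and small mean differences. Cebpa (chr7:35119293-35121928, plus strand) was at 3.61–8.27 FPKM in EAE with a median of 5.01 and at 3.87–6.004 FPKM in PBS with a median of 5.65. EAE 1 was the lowest and EAE 5 the highest of all 16 libraries, so that the EAE group enclosed the PBS group. Its log2FC was −0.05 (SE 0.13, adjusted p = 0.888 in edgeR). Cebpb (chr2:167688915-167690418, plus strand), which acts in inflammatory and acute-phase responses, was at 8.19–12.4 FPKM in EAE and 5.69–12.5 FPKM in PBS, with a median of 10.3 in both groups. Its log2FC was 0.03 (SE 0.14, 95% confidence interval −0.26 to 0.32, adjusted p = 0.937 in edgeR). Cebpa overlaps the antisense gene Gm45091, and Cebpb overlaps Tmem189 on the opposite strand. Of the 5 other genes listed with the C/EBP factors 0 were called. Cebpz, listed by its name, was the most abundant at 8.06 ± 0.405 FPKM in EAE and 7.80 ± 0.478 FPKM in PBS.

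Maf and Mef2c, factors of mature macrophages, were also close between the groups. Maf (chr8:115682942-115707794, minus strand, overlapping the antisense gene Gm15655) was at 2.69–3.66 FPKM in EAE with a median of 3.01. In PBS it was at 2.37–4.19 FPKM with a median of 2.72, the highest being PBS 4 and the lowest PBS 2. Its log2FC was 0.01 (SE 0.12, adjusted p = 0.976 in edgeR). The most abundant MAF paralog was Mafg.

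Mef2c (chr13:83504034-83667080, plus strand) was at 40.2, 38.1, 40.8, 39.3, 31.7, 36.6, 40.8 and 39.2 FPKM in EAE 1 to EAE 8. The PBS libraries were at 33.6, 35.1, 34.6, 40.0, 36.3, 33.0, 37.0 and 36.6 FPKM. In the EAE group 7 of 8 libraries were above the PBS median of 35.7, and EAE 5 was the lowest of all 16. The exact permutation p was 0.0751 (two-sided). With 6314–9111 counts per library Mef2c was also the most precisely measured, with a log2FC of 0.05 (SE 0.05, 95% confidence interval −0.063 to 0.16, adjusted p = 0.693 in edgeR). EAE 5 also had the lowest summed FPKM of neuron markers, 1138 against 1284–1427 in the other EAE libraries. The part of neurons in the Mef2c level was not tested. Mef2d, its most abundant paralog, was at 39.2 ± 4.01 FPKM in EAE and 37.6 ± 4.34 FPKM in PBS (SD, n = 8) with a log2FC of 0.01.

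**Figure D3:**
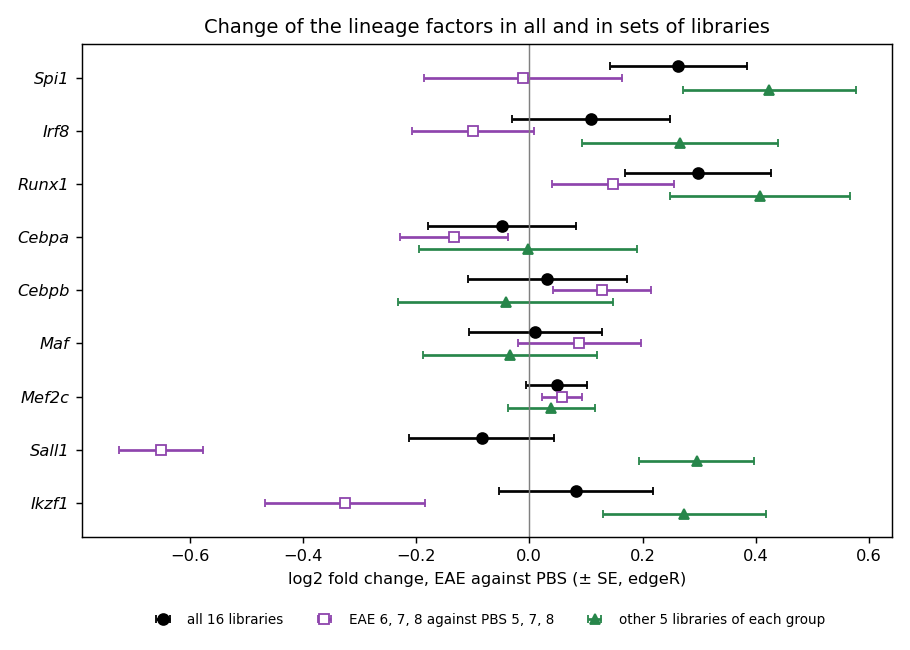
The log2FC of each factor (EAE against PBS, ± SE from edgeR) in all 16 libraries, in EAE 6, 7 and 8 against PBS 5, 7 and 8, and in the other 5 libraries of each group. Sall1 lies at −0.65 within the 6 libraries most alike and at 0.30 in the others, and the remaining factors were not shown to differ between sets.

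Sall1, a factor of microglial identity that neural progenitors also use, had log2FC of opposite sign in the 2 sets of libraries. The cell source of its RNA in these libraries was not tested. Sall1 (chr8:89027235-89044162, minus strand, 599–1388 counts per library) had a log2FC of −0.08 over all 16 libraries (SE 0.13, 95% confidence interval −0.35 to 0.18, adjusted p = 0.792 in edgeR). Its levels are given here by library set. It was at 4.27, 4.85 and 4.46 FPKM in EAE 6 to EAE 8 and at 6.43, 7.61 and 6.87 FPKM in PBS 5, PBS 7 and PBS 8. In the other libraries the order was turned, with 6.13, 5.92, 6.90, 4.83 and 4.79 FPKM in EAE 1 to EAE 5 and 4.43, 4.11, 4.47, 4.88 and 4.30 FPKM in PBS 1, 2, 3, 4 and 6. Within the 6 libraries most alike the groups did not overlap, as was so in the same direction for 15.5% of all mRNAs there. In the others, EAE 4 and EAE 5 fell below PBS 4.

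Within the set Sall1 was lower in EAE by edgeR, with a log2FC of −0.65 (SE 0.074, adjusted p = 3.61e-07), and it was the only one of the 9 factors called there. In that comparison 23.2% of all mRNAs were called and 12.6% were lower. Among the other 5 libraries of each group the log2FC was 0.30 (SE 0.10, unadjusted p = 0.0102, adjusted p = 0.286), where 0.0895% of all mRNAs were called. The change itself differed between the sets, by −0.95 on the log2 scale (SE 0.15, unadjusted p = 3.31e-06, adjusted p = 0.0174 in edgeR). Only 11 of 17885 mRNAs, or 0.0615%, passed this interaction test, and all 11 had the same sign. This count depended on single libraries, from 0 without EAE 6 and 1 without EAE 7, PBS 7 or PBS 8 to 40 without EAE 4 and 43 without EAE 5, and it was 63 in DESeq2. The call for Sall1 held when 11 of the 16 libraries were left out one at a time and was lost without EAE 6 (adjusted p = 0.134), EAE 7 (0.0530), EAE 8 (0.0652), PBS 7 (0.0867) or PBS 8 (0.0595), with a log2 difference of −1.01 to −0.88 throughout. The sets were defined from the similarity of all mRNAs, Sall1 included, and cannot be assigned to a labelled batch. The libraries of the set were picked for small differences within a group, so the spread that edgeR measured there is low. The SE and adjusted p within the set are therefore likely too small. The interaction p rests on the same choice and on joining EAE and PBS libraries into the set, and can be too small as well.

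The 10 other mRNAs that passed the interaction test were Zic1, Gfap, Pik3r3, Apcdd1, Fam102b, Wdr63, Meis2, Ppp3cc, Maml3 and Dlx1. Zic1, Meis2 and Dlx1 encode transcription factors of forebrain and interneuron development, and Gfap encodes the intermediate filament of astrocytes. Meis2 was also the mRNA whose level was most like that of Sall1 (Pearson r = 0.95 over the 16 libraries after subtracting group means, among 14758 mRNAs), followed by Vipr2 (r = 0.90) and Ankrd6 (r = 0.89). These correlations are descriptions over libraries that share the sets. Meis2 was at 15.8–17.5 FPKM in EAE 6 to EAE 8, at 24.9–26.03 FPKM in PBS 5, 7 and 8, and at 16.04–26.2 and 14.7–17.7 FPKM in the other EAE and PBS libraries. The medians of Zic1 were 4.96, 7.38, 6.88 and 4.72 FPKM in that order.

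**Figure D4:**
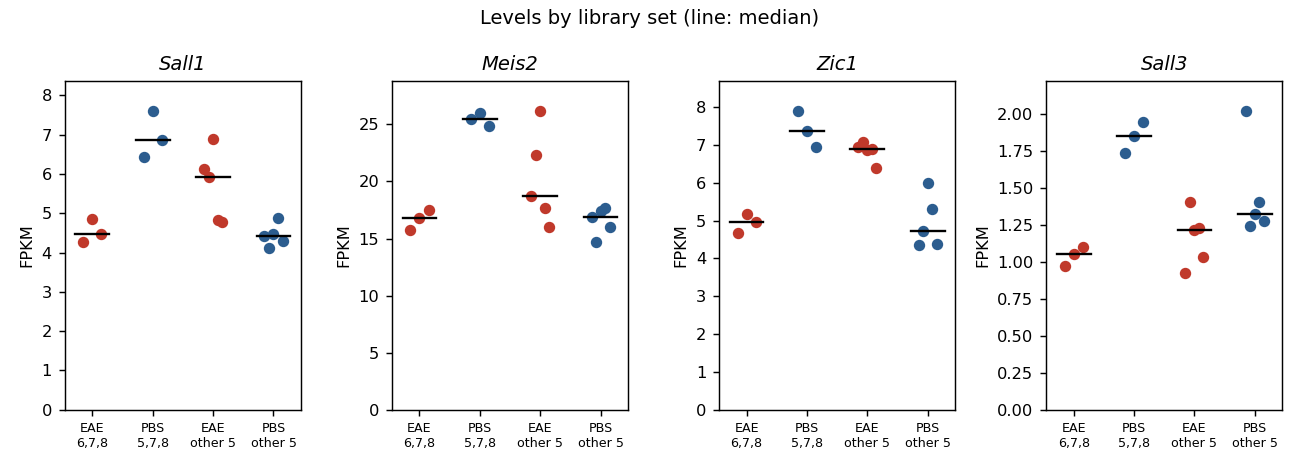
FPKM of Sall1, Meis2, Zic1 and Sall3 by group and library set, with 1 point per library and a line at the median. Sall1, Meis2 and Zic1 are high in PBS 5, 7 and 8 and low in EAE 6, 7 and 8, and their EAE medians exceed the PBS medians in the other libraries, whereas Sall3 has the lower median in EAE in both sets.

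Several marker sums also differed between these sets. Endothelial markers summed to 43.1–51.4 FPKM in EAE 6 to 8 and 53.6–63.2 FPKM in PBS 5, 7 and 8, but to 48.0–66.4 and 38.7–52.8 FPKM in the other EAE and PBS libraries. Excitatory neuron markers summed to 1081–1136 and 1025–1076 FPKM within the set and to 956–1019 and 1060–1148 FPKM outside it, so both lists had medians of opposite order in the 2 sets. The summed FPKM of inhibitory neuron markers was 208–224 in EAE 6 to 8 and 252–272 in PBS 5, 7 and 8, but 157–249 and 236–308 in the other EAE and PBS libraries, so that its medians were lower in EAE in both sets. Microglia markers summed to 306–336 and 322–356 FPKM within the set, and to 417–481 and 285–442 FPKM in the other EAE and PBS libraries. Their part in the Sall1 values was not tested. Relative to the summed microglia markers the log2 ratio of Sall1 differed between EAE and PBS by −0.25 over all 16 libraries (exact permutation p = 0.176, two-sided).

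Among the SALL paralogs, Sall3 was lower in EAE. It was the only gene called on the paralog lists, 1 of 38 tested, against 1.76% called lower over all mRNAs. It was at 0.924–1.41 FPKM in EAE with a median of 1.08 and at 1.25–2.02 FPKM in PBS with a median of 1.57. The log2FC was −0.57 (SE 0.11, adjusted p = 0.0106 in edgeR), and it was called in 16 of 16 fits that each left out 1 library. It was −0.85 within the 6 libraries most alike (adjusted p = 1.97e-07) and −0.39 in the others (adjusted p = 0.329 in edgeR), and the difference was not called (interaction adjusted p = 0.588). The adjusted p within the set is likely too small, as the set was picked for likeness. Sall2, the most abundant paralog of this family, had a log2FC of −0.12 (SE 0.07, adjusted p = 0.341 in edgeR). Inhibitory and striatal neuron markers were also lower in EAE, with 3 of 8 called in each list against 1.76% over all mRNAs. Among those called were Gad1, Slc32a1 and Npy, and Ppp1r1b and Adora2a. The part of these markers in the Sall3 value was not tested.

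Over all families, 38 of 40 genes on the paralog lists, which also hold Cbfb, were tested, and 0 were called higher and 1 lower. The share called over all mRNAs was 0.66% higher and 1.76% lower. The most abundant ETS paralog was Ets2 at 20.6 ± 1.89 FPKM in EAE and 20.2 ± 0.812 FPKM in PBS (SD, n = 8), and the most abundant Ikaros paralog was Ikzf5 at 5.65 ± 0.48 and 5.58 ± 0.366 FPKM. Of 40 other macrophage factors 39 were tested and 0 were called, with a median log2FC of 0.06. Id2 was the most abundant of them at 40.5 ± 7.49 FPKM in EAE and 39.9 ± 4.53 FPKM in PBS (SD, n = 8). Of the 20 signals that act upstream of these factors, such as the CSF1 and TGF-beta ligands and receptors, 19 were tested and 0 were called. Csf1r, the receptor on which microglia depend for survival and the most abundant of these, had a log2FC of 0.12 (SE 0.11, adjusted p = 0.591 in edgeR).

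Among 17 known target genes of these factors, 1 was called higher and 0 lower, with a median log2FC of 0.25 against 0.009 over all tested mRNAs. Over all mRNAs 0.66% were called higher and 1.76% lower, which is the background for every list in this paragraph. The called gene was Itgam, a PU.1 target that encodes the CD11b used in the sort. Itgam was at 7.39–9.61 FPKM in EAE and 4.94–6.56 FPKM in PBS, with no overlap, which held in the same direction for 0.162% of all mRNAs. Its log2FC was 0.46 (SE 0.07, adjusted p = 0.0018 in edgeR). Cst3 was the most abundant target at 899 ± 152 FPKM in EAE and 989 ± 66.5 FPKM in PBS, with a log2FC of −0.19 (adjusted p = 0.212 in edgeR). Of the 20 microglia markers, Itgam and Trem2 were called higher, and of 10 neutrophil markers 4 were called higher, with a summed level of 49.6–101 FPKM in EAE and 19.3–57.5 FPKM in PBS. S100a8, S100a9, Ngp and Ltf were the 4 neutrophil genes. Of the remaining marker lists, Syt1 and Syp of the 12 neuron markers and Vtn of the 7 pericyte and smooth muscle markers were called lower, and Gfap of the 8 astrocyte markers was called higher. The other 7 astrocyte markers had a log2FC below 0, and the log2FC of Gfap was −0.05 within the 6 libraries most alike and 0.87 in the others.

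The level of each factor was next set against the summed CPM (counts scaled to library size) of the microglia markers, since the amount of microglial RNA differed between libraries. None of the 9 ratios differed between EAE and PBS at p under 0.05 in the exact permutation test. The log2 ratio was higher in EAE by 0.07 for Spi1 (p = 0.582, exact) and 0.13 for Runx1 (p = 0.548, exact), compared with 0.26 and 0.30 for their log2FC. With 1 library left out these ratios were 0.0079–0.13 for Spi1 and 0.019–0.21 for Runx1. The lowest p was that of Ikzf1, with a difference of −0.12 (p = 0.123, exact), and the largest difference was that of Cebpa at −0.26 (p = 0.186, exact). For Ikzf1 the SD of this ratio was 0.15 on the log2 scale in EAE and in PBS, the smallest among the 9 factors in both groups.

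Across mice, 54 correlations of a factor with the summed microglia, neuron or endothelial markers within a group were computed, and 0 had an adjusted p under 0.05. In the EAE group the microglia marker sum fell into separate ranges, 306–336 FPKM in EAE 6 to 8 and 417–481 FPKM in EAE 1 to 5, so no pooled correlation is given there. The lowest adjusted p of the 54 was 0.133 (exact permutation test), for Ikzf1 in that group. This p comes from a pooled correlation across these ranges and has the same limit. Ikzf1 was higher in each of EAE 1 to 5 than in each of EAE 6 to 8. In the PBS group Ikzf1 had r = 0.75 with the microglia markers (exact permutation p = 0.0221, adjusted p = 0.171) and rho = 0.71 (exact p = 0.0576, adjusted p = 0.535), and r fell to 0.36 without the 2 libraries farthest from the median. Mef2c in the EAE group had r = 0.82 with the neuron markers (exact permutation p = 0.0116, adjusted p = 0.171) and rho = 0.67 (exact p = 0.0831, adjusted p = 0.561). Without EAE 2 and EAE 5 it was r = 0.53, so the relation rests largely on those libraries. Cebpa in the EAE group had a correlation with the neuron markers of larger size, r = −0.85 (exact permutation p = 0.00826, adjusted p = 0.171), and rho = −0.69 (exact p = 0.0694, adjusted p = 0.535). Its r was −0.26 without the same libraries. Maf in the PBS group had r = 0.77 with the microglia markers (exact permutation p = 0.0158, adjusted p = 0.171) and rho = 0.69 (exact p = 0.0694, adjusted p = 0.535). Without the 2 libraries farthest from the median that r was 0.41. Cebpb in the PBS group had r = −0.70 with the microglia markers (exact permutation p = 0.0477, adjusted p = 0.286). The rho of Cebpb was −0.48 (exact p = 0.243, adjusted p = 0.802), and its r was 0.016 without PBS 1 and PBS 4. Some other pairs also had an unadjusted exact p under 0.05.

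**Figure D5:**
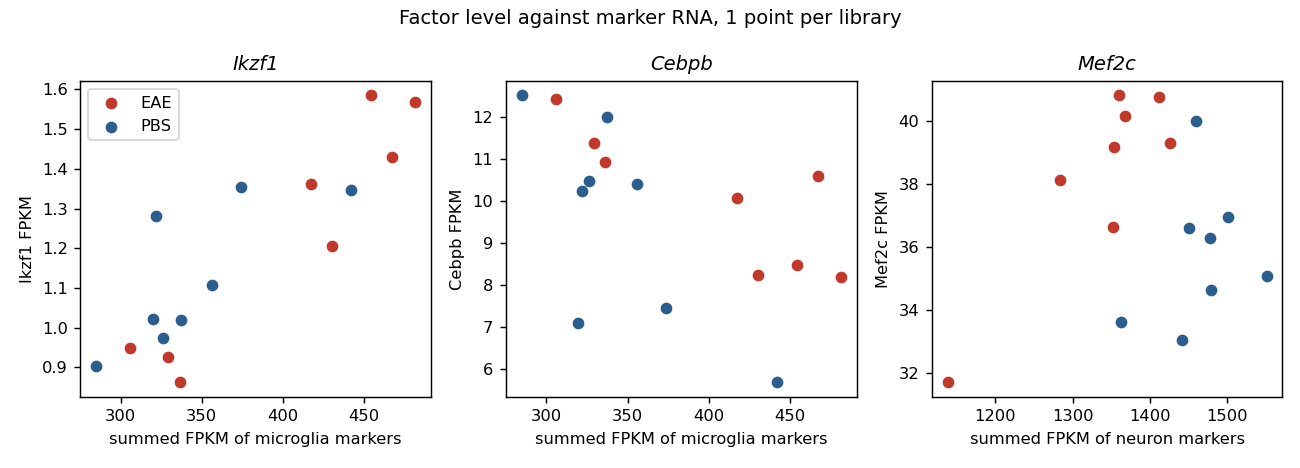
FPKM of Ikzf1 and Cebpb against summed microglia markers and of Mef2c against summed neuron markers (both axes FPKM), with 1 point per library in red for EAE and blue for PBS. EAE libraries form separate ranges of microglia markers, 306–336 and 417–481, and EAE 5 lies alone at 1138 on the neuron axis.

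The mRNAs most like each of the other factors, by the same group-centred correlation over 16 libraries, differed from factor to factor. They were picked as the highest among 14758 mRNAs, so high r values follow in part from that choice. As for Sall1, the libraries share the sets, and none of these correlations was tested. Irf8 was closest to Abl2 (r = 0.93), Stat3 (r = 0.92) and Spata13 (r = 0.92). For Ikzf1 they were Stab1 (r = 0.91), 2610008E11Rik (r = 0.91) and Vsir (r = 0.91), of which Stab1 is on the list of border macrophage markers. Runx1 was closest to Zfp704, Hdlbp and Cyth4 (r = 0.87 for each), and Spi1 to Tmem65 (r = 0.81), Npffr1 (r = 0.78) and 2410004B18Rik (r = 0.77). Cebpa was closest to Ubn1 (r = 0.91), Slc30a1 (r = 0.91) and Dhps (r = 0.90). Cebpb was closest to Rusc2 (r = 0.92), Notch1 (r = 0.92) and Nop9 (r = 0.90). Cyld (r = 0.91) and Ercc6 (r = 0.88) were among the mRNAs closest to Maf, and Smyd3 (r = 0.89) and Ccdc62 (r = 0.88) among those closest to Mef2c.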

How the data were processed

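Sequencing libraries were total RNA after ribosomal depletion (TruSeq Stranded, Ribo-Zero Gold). The authors deposited raw read counts per mRNA and FPKM values, and the submitters' processing notes name HISAT2 2.1.0, HTSeq 0.11.2, bcl2fastq and DESeq2 1.22.2. The paper names GRCm38 for a read filter and RefSeq for transcript annotation. The genome build of the HISAT2 alignment, the annotation release and the strand setting of the counting are not given in the sources used here. Overlapping antisense genes may therefore share reads. The overlaps named above are of GENCODE gene models, which the annotation used for counting need not contain. The FPKM values deposited by the authors scale each gene's count to the library's total, and 0 columns of values were left unused.

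Groups were taken from the sample labels. Counts were tested with edgeR 4.0.16 (R 4.3.3, TMM, quasi-likelihood) on the 17885 mRNAs whose counts summed to 16 or more, for EAE against PBS. A gene was called at an adjusted p under 0.05. Nothing in the labels says more of the mice than 1 library each, and p-values measure the spread between these libraries. Single levels were compared by two-sided exact permutation tests (12870 ways to divide the 16 libraries, smallest possible p 0.000155). Those on FPKM lack the TMM scaling of edgeR. The median log2FC over all mRNAs was 0.054 with limma on log2(FPKM + 0.1) and 0.009 in edgeR, so FPKM values lay slightly higher in EAE. Correlations used log2(CPM + 1). Alternatives were DESeq2 1.42.0, limma 3.58.1 on log2(FPKM + 0.1) and log2(FPKM + 1), other scalings and filters, a replicate block, library sets and leaving out each library. The model was checked on simulated data. Coordinates are from GENCODE on GRCm38, matched by gene symbol.

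The 9 factors and all gene lists were chosen with earlier results of these data known. Named genes were all factors, up to 6 called genes and the most abundant gene of each list, the most abundant paralog of each family and the 3 mRNAs most correlated with each factor, of which a few are not reported here. The mRNAs of the interaction test, and Irf7, Irf1 and Cbfb, were named after their values were seen.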

Additional observations from a re-analysis of the deposited data

Results flagged for a closer look

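Mef2c in EAE 5 was far from the other EAE libraries, at 31.7 FPKM against 36.6 FPKM in the next lowest, a gap of 0.541 of the range of the group. It was the only such value among the 18 groups of 8 that were examined, and chance alone marks about 1 in 20 groups. EAE 5 also had the lowest summed neuron markers in the EAE group, 1138 FPKM, and the highest summed astrocyte markers, 1782 FPKM.

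The change of Sall1 between EAE and PBS differed between the 6 libraries most alike and the other 10 by −0.95 on the log2 scale (adjusted p = 0.0174, interaction term in edgeR). It was lower in all 3 EAE libraries than in all 3 PBS libraries of the set, as was so for 15.5% of all mRNAs there. Outside the set, 3 of the other 5 EAE libraries were above all of the other 5 PBS libraries. The set was picked for the likeness of its libraries within a group, so the adjusted p can be too small.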

How the results depend on the processing

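The number of factors called was 0 under every alternative except within EAE 6 to 8 and PBS 5, 7 and 8, where it was 1 (Sall1, log2FC −0.65). Of 252 alternative values of the log2FC, 231 kept their direction and side of the threshold, 1 passed it and 20 changed sign. In that set the sign turned for Spi1 (−0.011), Irf8 (−0.10) and Ikzf1 (−0.32), and in the other 5 libraries of each group for Cebpb (−0.042), Maf (−0.035) and Sall1 (0.30); fewer libraries were fitted in both. Leaving out each library in turn gave −0.16 to 0.015 for Cebpa, −0.047 to 0.096 for Cebpb, −0.029 to 0.099 for Maf and −0.15 to 0.0037 for Sall1, and −0.17 to 0.068 for Irf8 relative to microglia markers. Relative to those markers Cebpa passed an unadjusted 0.05 without PBS 4 (−0.39, exact p = 0.0312; range −0.39 to −0.17), as did Ikzf1 with the geometric mean of the markers (−0.15, exact p = 0.0326). The interaction of Sall1 ranged from −1.01 to −0.88 with 1 library left out. That of Cebpa ranged from −0.26 to 0.060, that of Maf from −0.0024 to 0.20 and that of Mef2c from −0.044 to 0.055. The alternatives for the interaction were chosen after seeing the data, and Sall1 was called in each that kept 16 libraries, with adjusted p from 2.11e-05 in DESeq2 to 0.0208 with DESeq2 size factors.

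Counts over all mRNAs, 118 higher and 315 lower, depended more on the processing. They were 131 and 187 with upper quartile scaling, 296 and 601 in DESeq2, 132 and 73 with limma on log2(FPKM + 0.1), 157 and 80 on log2(FPKM + 1), 242 and 526 with a term for library set, 1901 and 2251 within EAE 6 to 8 and PBS 5, 7 and 8, and 10 and 6 in the other 10 libraries. With 1 library left out they were 37 (without EAE 8) to 501 (without EAE 4) and 103 to 811. The cause was not tested.

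The replicate numbers did not pair the libraries, since deviations of same-numbered libraries correlated at −0.25 to 0.59 and 2 of 8 EAE libraries were closest to their own number. With the replicate block 150 mRNAs were higher and 367 lower, 0 factors were called, and Runx1 had an unadjusted p of 0.0432 and Spi1 of 0.0537. Spi1 had the fewest counts of the factors, 101–195 per library.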
